A study of Mus musculus with 12 samples.

Results

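The genes described here encode the nuclear subunits of oxidative phosphorylation, the mitochondrial machinery that burns fuel with oxygen to make ATP. The family was chosen with earlier results of these data known, and its members were set by symbol alone. The rule took all genes in the array annotation named Nduf with a subunit letter and number, Sdha to Sdhd, Uqcr, Cox4 to Cox8 or Atp5, without pseudogenes. This gave 68 of the 16426 genes with a probe set naming a single gene. By complex they were 28 genes of complex I, 3 of complex II, 5 of complex III, 18 of complex IV and 14 of complex V. Ndufa4 was counted with complex IV, with which its protein associates. Cox7c, Ndufb4 and Ndufb4b, named only by probe sets that name several genes, stand outside the 68. Some other nuclear subunits, and the subunits encoded by mitochondrial DNA, are not analysed here.

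The study measured RNA of mouse CD4+ T cells on Affymetrix Mouse Gene ST 1.0 arrays, with 12 arrays in 6 groups of 2. Regulatory T cells (Tregs), which depend on the transcription factor Foxp3 and restrain immune responses, came from spleens of mice with the genotypes Foxp3(WT/WT), Foxp3(M354/M354) and Foxp3(M176/M176), and were double sorted as DAPI-negative CD4+ CD25high cells. The other groups held wild-type (WT) conventional T cells that received WT, M354 or M176 Foxp3 by retrovirus in culture and were sorted as Thy1.1high, Thy1.1 being the surface marker used for sorting transduced cells. All mice were male C57Bl/6 aged 6 weeks, and the design has no transduction without Foxp3. What M354 and M176 change in the protein is not stated in these sources. Nothing in the labels tells if both arrays of a group hold separate animals or cultures, so a p-value here measures only the scatter of these arrays, part or all of which can be technical. In bulk samples such as these, fewer cells of a type and less RNA per cell cannot be told apart.

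Oxidative phosphorylation runs through 5 complexes of the inner mitochondrial membrane. Complex I takes electrons from NADH and complex II takes them from succinate; complex III passes them from ubiquinol to cytochrome c, and complex IV hands them to oxygen. Complexes I, III and IV pump protons, and complex V, the ATP synthase, makes ATP as the protons flow back. Tregs are known to rely on mitochondrial respiration more than activated conventional T cells do, whose growth draws heavily on glycolysis. Each complex has a core held in common with bacteria and, in all but complex II, accessory subunits around it.

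The start regions of the subunit genes are shown first because most of these genes moved together, as described below. RefSeq start regions of 300 bases, 250 before the start and 50 after it on build GRCm38.p6, were found for 57 of the 68 genes. They were searched on both strands for the letters of factors known from mitochondrial gene promoters. The NRF1 letters GCATGCGC stood in 9 of the 57 start regions (15.8%), against 6.24% of 7095 genes tested and 3.05% of all 27025 genes in the table. Where they lay on both strands, the matches overlapped. The YY1 letters AAGATGGCG stood in 10.5%, 3.47% and 1.64% of the same groups, and the ETS letters CCGGAAGT, which GABP reads, in 7.02%, 9.7% and 4.31%. The letters of ERR alpha, TCAAGGTCA, were in the start regions of Atp5g3 and Sdhd (3.51%, against 0.352% and 0.466%). The Sp1 letters GGGCGG were in 42.1% of the subunit genes, against 68.5% of genes tested and 38.2% of all genes. The TATA letters TATAAA were in 12.3%, against 8.15% and 15.7%. For both, the subunit share thus lay between the shares of these larger groups. These are shares of letters in a window and show no binding. The 100 bases before the start are printed 5′ to 3′ for 5 genes with the NRF1 letters, with Atp5j for YY1 and Uqcrh for ETS, the matched letters (either strand) in capitals. Sdhb lies at chr4:140961171-140961270 and Ndufa11 at chr17:56717662-56717761, both on the plus strand. On the minus strand lie Ndufa6 at chr15:82354292-82354391, Atp5k at chr5:108434400-108434499, Atp5g2 at chr15:102671048-102671147, Atp5j at chr16:84834977-84835076 and Uqcrh at chr4:116075071-116075170.
Sdhb: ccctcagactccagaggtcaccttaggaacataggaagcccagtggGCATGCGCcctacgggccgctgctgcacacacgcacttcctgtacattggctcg
Ndufa11: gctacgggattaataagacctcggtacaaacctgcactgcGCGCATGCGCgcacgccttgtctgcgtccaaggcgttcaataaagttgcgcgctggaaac
Ndufa6: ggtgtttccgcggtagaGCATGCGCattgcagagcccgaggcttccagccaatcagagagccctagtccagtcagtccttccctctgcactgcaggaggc
Atp5k: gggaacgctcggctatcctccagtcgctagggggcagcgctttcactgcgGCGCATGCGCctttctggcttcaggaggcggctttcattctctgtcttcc
Atp5g2: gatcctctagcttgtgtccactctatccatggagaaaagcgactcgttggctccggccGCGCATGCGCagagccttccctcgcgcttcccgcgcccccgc
Atp5j: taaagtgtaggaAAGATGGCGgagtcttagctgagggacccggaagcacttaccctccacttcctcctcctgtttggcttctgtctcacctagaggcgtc
Uqcrh: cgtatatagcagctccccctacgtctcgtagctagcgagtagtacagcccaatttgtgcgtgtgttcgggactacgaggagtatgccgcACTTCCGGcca
Of these 7 genes, Atp5g2 was the one that did not pass the test in M176 Tregs, as the values below show. Among the 9 genes with the NRF1 letters, 8 rose there, as did all 6 with the YY1 letters and all 4 with the ETS letters. Of all 53 tested subunit genes with a start region, 45 rose, so these counts do not set genes with the letters apart.

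Of the 68 genes, 64 passed the filter on dim genes, which asked for a value above the array's own median on at least 2 of the 12 arrays. The other 4, Cox6b2, Cox7a1, Cox7b2 and Cox8b, are isoforms known from testis, heart or skeletal muscle, and lay below the median on every array. Cox7b2 measured 15.7 to 22.1 and Cox7a1 62.1 to 84.4 on the linear intensity scale of the deposited values, on arrays whose medians ranged from 101.5 to 117.4. No tested gene needed the M176 Treg arrays to pass the filter, and Cox8c needed those of WT and M354 Tregs. The tests below are limma's, fitted to log2 intensity over 8918 genes, and a gene is said to have risen or fallen at a Benjamini-Hochberg adjusted p under 0.05.

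Libraries differed in ways that bear on these results. Foxp3 measured 3442 and 3321 on the M176 Treg arrays and 5233 to 6163 on the other 10. The mean log2 level of 7 CD4 T cell and Treg markers lay between 11.88 and 12.23, lowest on an M176 Treg array. Of the 7, Foxp3, Cd3e, Il2ra and Tnfrsf18 fell in M176 against WT Tregs and Cd3d rose (limma adjusted p under 0.05). The table holds 10 of the 12 listed B cell markers, and 8 of them were higher on WT Treg array 2 than on any other Treg array. Their mean log2 level was 8.38 there, 6.97 to 7.21 on the other 5 Treg arrays and 8.13 to 8.26 on the transduced arrays. The mean log2 level of CD8 T and NK cell markers was 5.92 to 6.09 in Tregs and 6.91 to 7.36 in transduced cells. Of the 7 in the table, 5 were lower on every Treg array than on every transduced array. Klrb1c and Ncr1, of NK cells, were dim and not among them. Cd8a measured 344 to 449 in transduced cells and 70.0 to 111 in Tregs. Of the 4 plasma cell markers in the table, Jchain and Mzb1 were lower on every Treg array than on every transduced array (Mzb1 at 87.4 to 118 against 204.5 to 293). Sdc1 and Irf4 overlapped between Tregs and transduced cells. Myeloid markers (5.39 to 5.61) and dendritic cell markers (5.51 to 6.19) were low on all arrays.

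In Tregs with M176 Foxp3, 50 of the 64 genes (78.1%) were higher than in WT Tregs and 0 were lower. Over all genes tested, 13.4% were higher and 11.3% lower. The median log2 change of the 64 was 0.806, with the middle of the genes (quartiles) between 0.485 and 1.11, against a median of -0.0431 over all genes. In 58 of the 64 genes both M176 arrays lay above both WT arrays, in 55 they lay above all 4 other Treg arrays, and in 37 above all 10 other arrays. The same held for 30.3%, 26.4% and 11.2% of all genes tested. Every complex took part: 24 of 28 tested genes rose in complex I, 2 of 3 in complex II, 4 of 5 in complex III, 10 of 14 in complex IV and 10 of 14 in complex V. Each of the 12 arrays was left out in turn, WT Treg array 2 with its high B cell markers among them. The median log2 change then ran from 0.749 to 0.881.

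**Figure D1:**
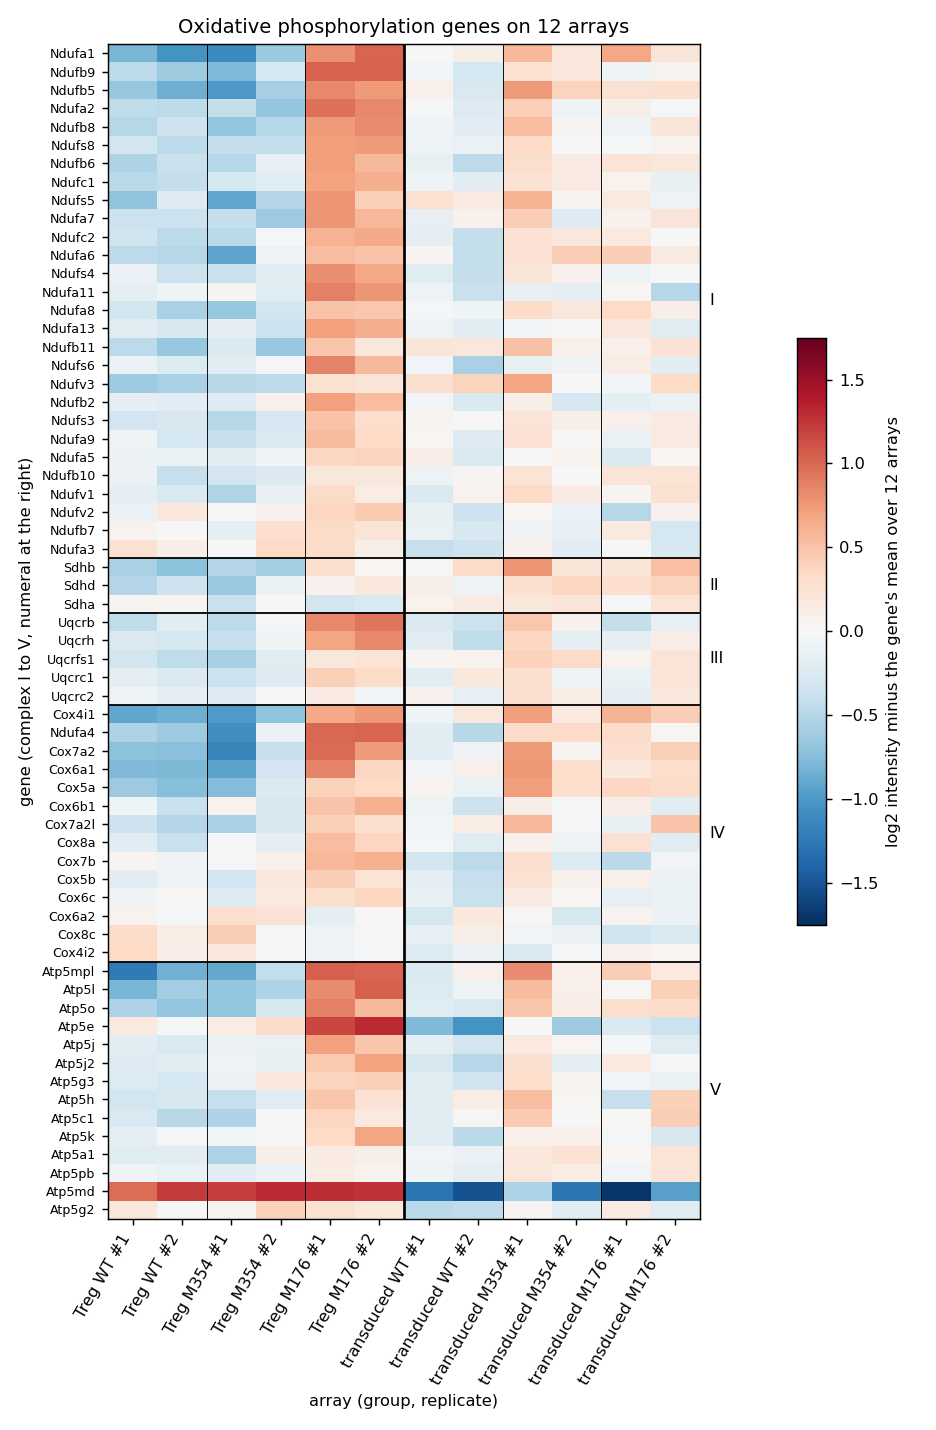
Each row is 1 of the 64 tested genes, sorted by complex and by change in M176 Tregs, and each column is 1 of the 12 arrays; colour is log2 intensity minus the gene's mean over all arrays. On each M176 Treg array 60 of the 64 genes lie above their own mean, and Atp5md stands out by its high values on all Treg arrays.

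Complex I, the largest complex and the entry point for electrons of NADH, had the highest median change in M176 Tregs (log2 0.929). Ndufb9, an accessory subunit of the membrane arm, measured 682 and 608 in WT Tregs, 553 and 763 in M354 Tregs, 1917 and 1931 in M176 Tregs, and 756 to 1134 on the 6 transduced arrays. The M176 Treg arrays were the highest of all 12. The log2 change from WT Tregs was 1.58 ± 0.154 (SE; limma, adjusted p = 3.72e-06), a 2.98-fold rise.

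Ndufa1, a small accessory subunit needed to build the membrane arm, changed most within complex I. Its intensity was 59.0 and 49.9 in WT Tregs, 47.4 and 65.6 in M354 Tregs, 178 and 208.5 in M176 Tregs, and 103 to 164.5 in transduced cells. All 4 WT and M354 Treg arrays lay below every transduced array, and both M176 arrays above every one (log2 1.83 ± 0.185, limma adjusted p = 5.42e-06 against WT Tregs). Ndufb5, another accessory subunit of the membrane arm, went from 457 and 400.3 in WT to 1296 and 1208 in M176 Tregs (log2 1.55 ± 0.168, limma adjusted p = 9.4e-06). On 1 transduced array, M354 array 1, it reached 1215, within the range of M176 Tregs.

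Subunits named Ndufb, which lie in the membrane arm, rose in 7 of 8 cases, those named Ndufc in 2 of 2 and those named Ndufs in 5 of 5. The Ndufs group includes core proteins that carry iron-sulfur clusters: Ndufs8 measured 1329 and 1222 in WT Tregs and 2771 and 2798 in M176 Tregs (log2 1.13 ± 0.133, limma adjusted p = 2.05e-05). Ndufs5, an accessory subunit, went from 121 and 168 to 338 and 264 (log2 1.07 ± 0.2, limma adjusted p = 0.00109). A further probe set names Ndufs5 together with a pseudogene, Ndufs5-ps, so signal from the copy may be mixed in. Many subunit genes have processed pseudogenes, and whether other probe sets read such copies was not tested, also where several probe sets of a gene gave like values.

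The Ndufv group, which forms the tip where NADH gives up its electrons, rose in 1 of 3 cases. Ndufv1, the subunit that holds the flavin and oxidises NADH, measured 464.5 and 432 in WT Tregs and 650.2 and 566.5 in M176 Tregs (log2 0.44 ± 0.159, limma adjusted p = 0.0535). Its M176 and WT arrays did not overlap, yet the difference missed the threshold. Ndufv2, an iron-sulfur subunit, had a log2 difference of 0.38 (limma adjusted p = 0.113). Ndufv3, a small accessory subunit, went from 258 and 272 to 483 and 464 (log2 0.84 ± 0.182, limma adjusted p = 0.00323). The other complex I genes below the threshold were Ndufb7 (log2 0.25) and Ndufa3 (log2 0.03). Besides those described, 18 complex I genes rose, by log2 changes from 0.448 for Ndufb10 to 1.36 for Ndufa2. They were Ndufa2, Ndufa5 to Ndufa9, Ndufa11, Ndufa13, Ndufb2, Ndufb6, Ndufb8, Ndufb10, Ndufb11, Ndufc1, Ndufc2, Ndufs3, Ndufs4 and Ndufs6.

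In complex II, which is also the succinate dehydrogenase of the tricarboxylic acid (TCA) cycle, the 3 subunits measured did not move alike. Sdhb, the iron-sulfur subunit, rose from 411 and 368 in WT Tregs to 739.5 and 621 in M176 Tregs (log2 0.80 ± 0.178, limma adjusted p = 0.0037). The call was lost without M176 Treg array 1 (limma adjusted p = 0.0638). Sdhd, a membrane anchor, rose by log2 0.57 ± 0.157 (limma adjusted p = 0.0137). Sdha, the flavoprotein that oxidises succinate, measured 1235 on both WT Treg arrays, 917 and 1203 in M354 Tregs and 962 and 994.5 in M176 Tregs. The log2 difference was -0.34 ± 0.142 (limma adjusted p = 0.0937) on the deposited values, and Sdha passed the threshold as lower after quantile normalization (log2 -0.399, limma adjusted p = 0.0335) and cyclic loess (log2 -0.38, limma adjusted p = 0.0408). Sdha had the most negative change of all 64 genes.

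In complex III, Uqcrb, which helps to bind ubiquinone, was 977 and 1152 in WT Tregs, 961 and 1290 in M354 Tregs and 2382 and 2546 in M176 Tregs. The transduced cells spanned 988 to 1838, below both M176 Treg arrays, and the log2 change from WT Tregs was 1.22 ± 0.168 (limma adjusted p = 8.81e-05). Uqcrh, the hinge protein, rose by log2 1.05 ± 0.172 (limma adjusted p = 0.000377). Uqcrfs1, the Rieske iron-sulfur protein, went from 156.5 and 144 to 224.5 and 231 (log2 0.60 ± 0.139, limma adjusted p = 0.00473). Of the pair Uqcrc1 and Uqcrc2, large subunits on the matrix side, Uqcrc1 rose from 746 and 701 to 1109 and 1039 (log2 0.57 ± 0.162, limma adjusted p = 0.0164), while Uqcrc2 had a log2 difference of 0.17 (95% interval -0.14 to 0.487). The Uqcrc1 call was lost without M176 Treg array 1 (limma adjusted p = 0.124), M176 Treg array 2 (limma adjusted p = 0.0504) or WT Treg array 2 (limma adjusted p = 0.0829).

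Complex IV, cytochrome c oxidase, has subunits with paired isoforms. Partner isoforms were not tested against each other, and several of the tissue-restricted ones were dim. Cox4i1, the general isoform of its largest nuclear subunit, measured 249 and 259.7 in WT Tregs, 235 and 287 in M354 Tregs, 744 and 796 in M176 Tregs, and 444 to 782 in transduced cells. In M176 Tregs 1 array lay within the transduced range and the other just above it, and the log2 change from WT Tregs was 1.60 ± 0.17 (limma adjusted p = 8.23e-06). Its partner isoform Cox4i2, known from lung and low oxygen, measured 158 and 135 in WT Tregs and 117 and 121 in M176 Tregs (log2 -0.30 ± 0.138, limma adjusted p = 0.124). Cox6a2 (log2 -0.10), the muscle isoform, and Cox8c (log2 -0.27), known from testis, were also below the threshold. Both Cox4i2 and Cox8c were dim, near the array medians. Cox8c passed the filter through 1 WT Treg and 1 M354 Treg array alone, so the filter itself favoured a negative difference and the value supports nothing.

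Cox7a2, the general isoform of another subunit, went from 216 and 214 to 705 and 596 (log2 1.59 ± 0.217, limma adjusted p = 8.17e-05). Ndufa4 went from 189 and 176.1 to 549 and 554 (log2 1.60 ± 0.217, limma adjusted p = 7.8e-05), its M354 Treg arrays being far apart at 129.9 and 254. Cox5a, which with Cox4 caps the matrix side of the enzyme, went from 312 and 290.1 to 641 and 621 (log2 1.07 ± 0.166, limma adjusted p = 0.000245). Cox6c was bright on every array, at 5509 and 5839 in WT Tregs and 7136 and 7469 in M176 Tregs, with a log2 difference of 0.36 ± 0.144 that missed the threshold (limma adjusted p = 0.0747). The other complex IV genes that rose were Cox6a1 (log2 1.40), the general partner of Cox6a2, and Cox6b1, Cox7a2l, Cox8a, Cox7b and Cox5b, from log2 0.79 down to log2 0.48.

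Complex V held both the gene with the greatest change and several with little. Atp5mpl, a small proteolipid of the membrane part, measured 142 and 187 in WT Tregs, 179 and 248 in M354 Tregs, 690.1 and 675 in M176 Tregs, and 281 to 592 in transduced cells. Its log2 change of 2.07 ± 0.215 (limma adjusted p = 6.37e-06), a 4.16-fold rise, was the highest of the 64 genes. Atp5l, the g subunit that helps ATP synthase form dimers, went from 236 and 269 to 725 and 849 (log2 1.64 ± 0.169, limma adjusted p = 6.37e-06). Atp5o, part of the stalk that holds the catalytic head, rose by log2 1.33 ± 0.159 (limma adjusted p = 2.29e-05). Atp5e, the epsilon subunit of the central rotor, went from 755 and 659.6 to 1509 and 1669 (log2 1.17 ± 0.177, limma adjusted p = 0.000204).

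The ring of c subunits, which turns as protons pass, is encoded by several genes, and 2 were measured here. Atp5g3 rose from 1259 and 1201 in WT Tregs to 1943 and 1970 in M176 Tregs (log2 0.67 ± 0.137, limma adjusted p = 0.00205). Atp5g2 measured 4285 and 3733 in WT Tregs and 4496 and 4229 in M176 Tregs, overlapping groups (log2 0.13 ± 0.156, limma adjusted p = 0.587), and its log2 difference was -0.285 after quantile normalization. The alpha subunit of the catalytic head, Atp5a1 (log2 0.33), the b subunit of the stalk, Atp5pb (log2 0.18), and Atp5md (log2 0.17), a small membrane subunit, were below the threshold as well. The gamma subunit Atp5c1, the shaft of the rotor, rose by log2 0.65, and Atp5h, Atp5j, Atp5j2 and Atp5k rose by log2 0.63 to 0.82.

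Across complexes, 7 of 12 listed subunits that carry out electron or proton transfer or catalysis rose (median log2 0.586), and 43 of the 52 others (median log2 0.91). The 12 were Ndufv1, Ndufv2, Ndufs3, Ndufs8, Sdha, Sdhb, Sdhd, Uqcrfs1, Atp5a1, Atp5c1, Atp5g2 and Atp5g3; Uqcrc1 and Uqcrc2 were counted with the others. The difference between these 2 classes was not tested. Bright and dim genes both rose: of the genes ranked by their level in WT-transduced cells, 17 of the dimmest 22 rose, 18 of the middle 21 and 15 of the brightest 21. For the 10 genes with several probe sets, the log2 changes of a gene's own probe sets differed by at most 0.21.

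**Figure D2:**
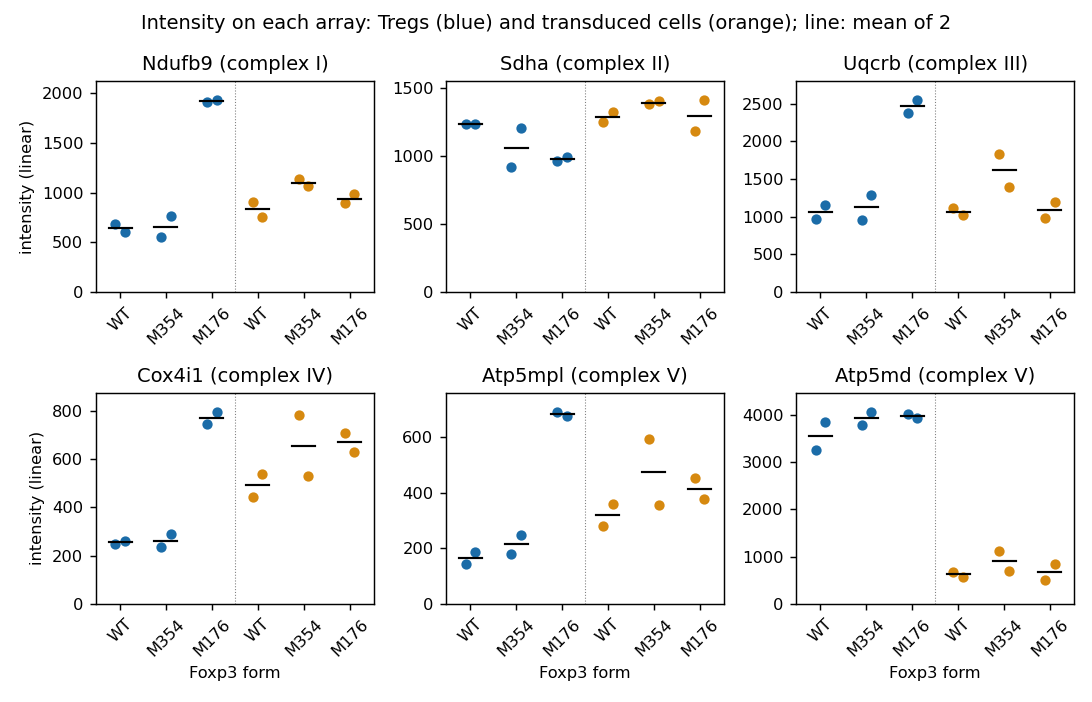
Linear intensity of 6 genes on every array, Tregs in blue and transduced cells in orange, with a line at the mean of each group's 2 arrays. Ndufb9, Uqcrb, Cox4i1 and Atp5mpl are high on both M176 Treg arrays (1917 and 1931 for Ndufb9), Sdha is not, and Atp5md separates Tregs from transduced cells.

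In Tregs with M354 Foxp3, 0 of the 64 genes were called in either direction against WT Tregs, and 1 had an unadjusted p under 0.05 (all genes, 11.1%). Over all genes 0.886% were higher and 0.919% lower. The median log2 difference was 0.0327, with 37 genes above 0, against -0.0449 over all genes. With an array left out it ran from -0.0787, without M354 Treg array 2, to 0.162, without M354 Treg array 1, so its sign is not settled. Atp5mpl had the greatest difference (log2 0.37, 95% interval -0.0794 to 0.828; limma adjusted p = 0.572). Atp5g3 was the gene with the unadjusted p under 0.05, measuring 1378 and 1688 in M354 Tregs against 1259 and 1201 in WT Tregs (log2 0.31 ± 0.137, limma adjusted p = 0.398). For Ndufb9 the difference was log2 0.01, with a 95% interval from -0.313 to 0.336.

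Set directly against each other, M354 Tregs were lower than M176 Tregs in 49 of the 64 genes (76.6%) and higher in 0, with a median log2 difference of -0.743. All genes gave 18.1% lower and 12.7% higher, with a median of -0.0222. This comparison and that of M176 with WT share the M176 arrays. Ndufa1 (log2 -1.79 ± 0.185, limma adjusted p = 3.79e-06) and Atp5mpl (log2 -1.70 ± 0.215, limma adjusted p = 2.47e-05) differed most, followed by Cox7a2 (log2 -1.64), Ndufa4 (log2 -1.60) and Ndufb5 (log2 -1.59). By complex, 25 of 28 genes were lower in complex I, 2 of 3 in complex II, 4 of 5 in complex III, 9 of 14 in complex IV and 9 of 14 in complex V. Calls of some genes near the threshold rested on single arrays: without M354 Treg array 1, on which the mean level of the subunit genes was lowest, 36 genes were called.

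**Figure D3:**
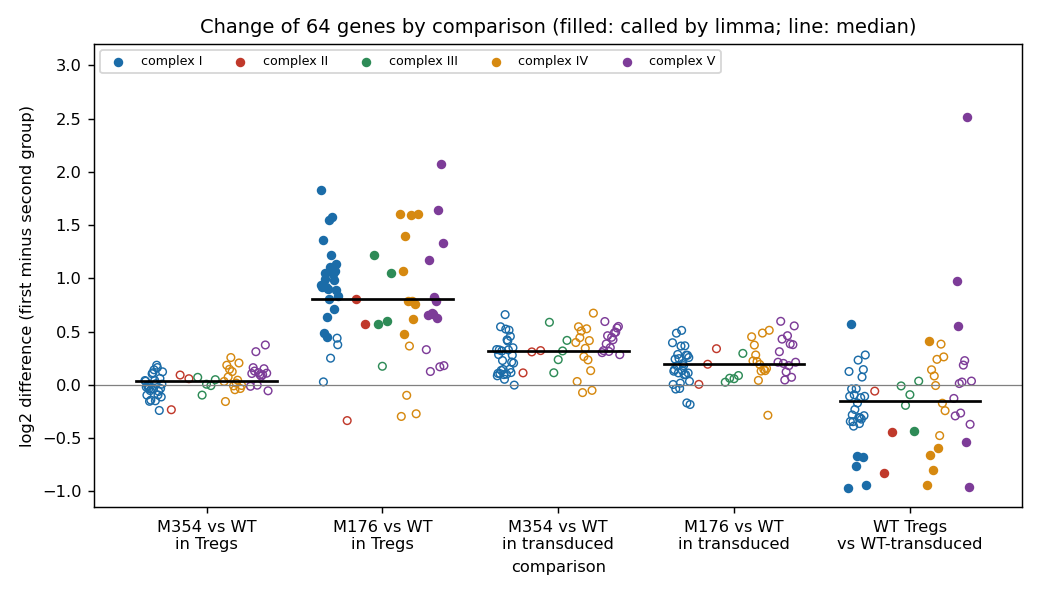
Log2 difference of each of the 64 genes (first minus second group) in 5 comparisons, coloured by complex; filled points passed limma's adjusted p of 0.05 and black lines are medians. The median is 0.806 for M176 against WT Tregs and 0.0327 for M354 against WT Tregs, and Atp5md, at 2.51, lies far above the rest in the comparison of WT Tregs with WT-transduced cells.

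In conventional T cells transduced with the same Foxp3 forms, no single subunit gene passed the test. For M354 against WT, 0 of 64 genes were called, where all genes gave 0.359% higher and 0.976% lower, while 33 genes had an unadjusted p under 0.05 (all genes, 11.4%). Of the 64 genes, 61 had a positive difference, the median was log2 0.321 against 0.0117 over all genes, and in 41 both M354 arrays lay above both WT arrays (all genes, 20.2%). The shift leaned on M354 array 1: the median fell to 0.171 without it. Ndufb5 came nearest to the threshold, with 1215 and 944 in M354-transduced and 768 and 599 in WT-transduced cells (log2 0.66 ± 0.168, limma adjusted p = 0.0693). Ndufa4, with 344 on both M354 arrays against 239 and 195, had the greatest difference (log2 0.67 ± 0.217, limma adjusted p = 0.181).

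For M176 against WT in transduced cells, 0 of 64 genes were called and 15 had an unadjusted p under 0.05; over all genes, 0.0112% were called higher, 0.505% lower, and 5.91% had such a p. The median log2 difference was 0.192 (all genes, -0.00912), with 59 genes above 0, and in 31 genes the M176 arrays lay above the WT arrays (all genes, 13.4%). Atp5e differed most, with 566 and 519.9 in M176-transduced against 394 and 327 in WT-transduced cells (log2 0.60 ± 0.177, limma adjusted p = 0.302). Between M354 and M176 transduction 0 of 64 genes were called and 1 had an unadjusted p under 0.05, with a median log2 difference of 0.112 (all genes, 0.0201; 0.0561% higher, 0.0224% lower and 5.19% with such a p). The median was -0.0111 without M354 array 1 and 0.241 without M354 array 2. The gene with an unadjusted p under 0.05 was Uqcrb, with 1838 and 1401 against 988 and 1195 (log2 0.56, limma adjusted p = 0.343). The 2 comparisons with WT share the WT-transduced arrays.

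Whether the difference between M176 and WT was itself different in the 2 systems was tested as an interaction. The M176-minus-WT difference was greater in Tregs than in transduced cells for 23 of the 64 genes (35.9%) and smaller for 0, against 4.03% and 1.47% over all genes. The 23 were 15 genes of complex I, 1 of complex III, 4 of complex IV and 3 of complex V. For Ndufb9 the difference of differences was log2 1.40 ± 0.217 (limma adjusted p = 0.0015), made up of 1.58 in Tregs and 0.18 in transduced cells. For Atp5mpl it was log2 1.69 ± 0.304 (limma adjusted p = 0.00409), made up of 2.07 and 0.38. The 27 genes that rose in Tregs without passing this test are not shown to have acted alike in both systems: for Cox5a, for example, the differences were 1.07 and 0.37. Leaving out any array of the groups compared lowered the count of 23, most of all M176 Treg array 1. With each of the 12 arrays left out in turn, the median log2 difference of differences of the 64 genes ran from 0.535 to 0.71. For M354, 0 of 64 genes passed the same test and 5 had an unadjusted p under 0.05 (all genes, 0.83% called greater, 0.247% smaller and 8.1% with such a p), with a median log2 of -0.321 (all genes, -0.0712), which was -0.144 without M354-transduced array 1.

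Tregs and transduced cells with the same WT Foxp3 were then compared. Of the 64 genes, 14 (21.9%) were lower in WT Tregs than in WT-transduced cells and 5 (7.81%) were higher, where all genes gave 19.4% lower and 10.9% higher, so neither share was far from the background. The median log2 difference was -0.149 (all genes, -0.0761). What part the markers named above as higher in transduced cells had in this was not tested. After quantile normalization the split was 10 lower and 7 higher, and after cyclic loess 11 and 5. The count of 19 fell to 11 without WT Treg array 1 and to 10 without WT-transduced array 1.

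The member that separated the 2 systems most was Atp5md, a small subunit of the membrane part of ATP synthase first known as a protein tied to diabetes. It measured 3251 and 3856 in WT Tregs, 3795 and 4070 in M354 Tregs and 4024 and 3940 in M176 Tregs. In transduced cells it measured 678 and 573 with WT, 1119 and 688 with M354 and 504 and 849.9 with M176 Foxp3. No Treg array came near any transduced array, and the log2 difference between the WT groups was 2.51 ± 0.221 (limma adjusted p = 2.08e-07), a 5.68-fold difference. The 3 probe sets of the gene gave log2 differences between 2.51 and 2.57.

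Atp5e was also higher in WT Tregs, at 755 and 659.6 against 394 and 327 (log2 0.98 ± 0.177, limma adjusted p = 0.000511). Ndufa3, an accessory subunit of complex I, was at 1318 and 1179 against 827 and 853 (log2 0.57 ± 0.153, limma adjusted p = 0.00998). Atp5g2 (log2 0.55, limma adjusted p = 0.0133) and Cox4i2 (log2 0.41, limma adjusted p = 0.0339) completed the 5. The calls of Ndufa3, Atp5g2 and Cox4i2 were each lost without WT Treg array 1 or without WT-transduced array 1.

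Lower in WT Tregs than in WT-transduced cells were Ndufa1 (log2 -0.97 ± 0.185, limma adjusted p = 0.00081), Atp5mpl (log2 -0.96 ± 0.215, limma adjusted p = 0.00281) and Cox4i1 (log2 -0.94 ± 0.17, limma adjusted p = 0.000482). Ndufv3 followed, with 258 and 272 against 489 and 528 (log2 -0.94 ± 0.182, limma adjusted p = 0.000936). Sdhb measured 411 and 368 against 616 and 769 (log2 -0.82 ± 0.178, limma adjusted p = 0.00225). The other 9 were Cox6a1, Ndufb11, Ndufs5, Ndufb5, Cox5a, Cox7a2, Atp5l, Sdhd and Uqcrfs1, with log2 differences from -0.80 to -0.44. Of the genes named with values here, Uqcrfs1 (log2 -0.44) lost its call without any 1 of the 4 WT arrays. Ndufs5 and Ndufb5 lost theirs without WT-transduced array 1, Ndufs5 also without WT Treg array 1 and Ndufb5 without WT Treg array 2. Cox7a2 (limma adjusted p = 0.0489) lost its call without any 1 of the 4 WT or the 4 M176 arrays, and Atp5l without WT Treg array 1 or WT-transduced array 2. Cox5a lost it without WT-transduced array 1.

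Genes that work with the subunits moved in part with them in M176 Tregs. Proteins that carry newly made mitochondrial proteins, the subunits included, across the membranes rose in 18 of 23 tested genes and fell in 0 (median log2 0.67). Tomm7, a small part of the outer membrane gate, went from 336 and 264 in WT Tregs to 1227 and 1215 in M176 Tregs (log2 2.03, limma adjusted p = 2.76e-06), and lay at 265 and 425 in M354 Tregs. Hspe1, the small partner of the mitochondrial chaperonin, rose by log2 1.62 and Tomm20, a receptor of the gate, by log2 1.57. Assembly factors, which put the complexes together without staying in them, rose in 13 of 29 genes and fell in 0 (median log2 0.271). Among them were Tmem126a (log2 1.45) for complex I, Coa3 (log2 0.975) for complex IV and Uqcc2 (log2 0.947) for complex III.

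All 5 tested genes for the passage of ATP or metabolites and for control of ATP synthase rose (median log2 0.67), with Vdac3, a pore of the outer membrane, at log2 1.30. Atpif1, an inhibitor of ATP synthase, rose by log2 0.756 and Slc25a5, an exchanger of ADP for ATP, by log2 0.67. Of the TCA cycle and pyruvate dehydrogenase genes, 5 of 16 rose (median log2 0.33), led by Suclg1 (log2 0.869), Mpc1 (log2 0.862), a carrier for pyruvate, and Dld (log2 0.747). Of 14 electron carriers and ubiquinone synthesis genes, 5 rose (median log2 0.263): Ndufab1 (log2 0.899), Etfb (log2 0.852) and Cyc1 (log2 0.618) changed most. Ndufab1, of complex I, and Cyc1, of complex III, are themselves subunits whose symbols fall outside the rule used here. In these lists 0 genes fell.

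Of 10 tested genes listed under mitochondrial DNA maintenance and transcription, 2 rose, Tfb1m (log2 0.906) and Endog (log2 0.554), and the median was log2 -0.101. What each listed gene does in these cells was not tested. Of 12 known transcriptional regulators of mitochondrial genes, 1 rose and 2 fell (median log2 -0.11). Over all genes 13.4% rose and 11.3% fell with a median of -0.0431, so counts in lists this small are near the background, and their difference from the subunits was not tested. Myc went from 1800 and 1701 to 2417 and 2391 (log2 0.458), while Gabpb2, a subunit of GABP (log2 -0.506), and Ppargc1b, a coactivator (log2 -0.405), fell. Nrf1, whose letters were counted in the start regions, was at 401 and 383 in WT and 365 and 396 in M176 Tregs. In M354 against WT Tregs, 0 genes of all these lists were called.

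**Figure D4:**
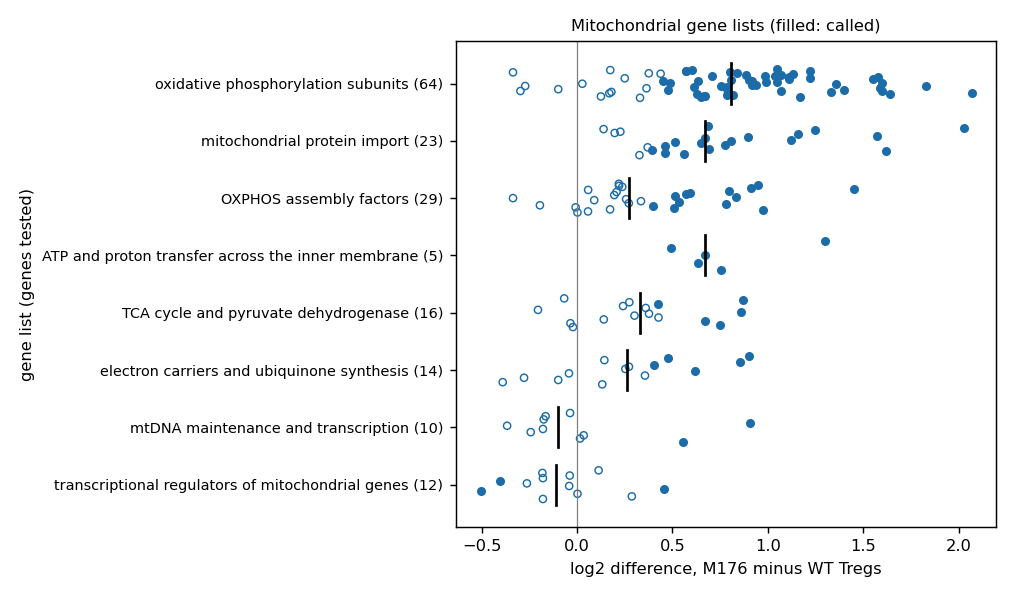
Log2 difference of M176 minus WT Tregs for the 64 subunit genes and 7 other lists of mitochondrial genes, 1 point a gene, filled where limma's adjusted p was under 0.05, with a black line at each median. The medians of subunits (0.806) and import genes (0.67) lie well above 0, those of mitochondrial DNA maintenance (-0.101) and regulators (-0.11) do not.

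The rise of the subunits went along with shifts in other groups of transcripts. The mean log2 level of the 64 genes was 9.19 and 9.15 in WT Tregs, 9.10 and 9.32 in M354 Tregs and 10.01 and 9.96 in M176 Tregs. Transduced cells gave 9.34 and 9.28 with WT, 9.76 and 9.49 with M354 and 9.50 and 9.53 with M176. The 2 M176 Treg arrays were the highest, and transduced M354 array 1 came next.

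Small nucleolar and Cajal body RNA genes (36 tested), which guide RNA modification and are not mitochondrial, gave 8.74 and 8.87 in WT Tregs, 9.98 and 10.04 in M176 Tregs and 9.64 on transduced M354 array 1. They did not track the subunits on every array: the transduced arrays 1 and 2 gave 8.61 and 9.18 with WT and 8.86 and 9.46 with M176 Foxp3, where the subunit means hardly moved (9.34 and 9.28, 9.50 and 9.53). Cytosolic ribosomal protein genes (52 tested) gave 11.02 and 10.98 in WT Tregs, 10.84 and 11.15 in M354 Tregs and 11.83 and 11.81 in M176 Tregs. On transduced arrays 1 and 2 they gave 11.06 and 11.09 with WT, 11.54 and 11.27 with M354 and 11.26 and 11.35 with M176 Foxp3. As for the subunits, M354 Treg array 1 was lowest, and transduced M354 array 1 came next after the M176 Treg arrays. In M176 against WT Tregs, 21 of the 36 rose and 0 fell (median log2 1.15), and 36 of the 52 rose and 1 fell (median log2 0.733). Over all genes tested 13.4% rose and 11.3% fell. These sets, and the proliferation genes below, were picked because earlier results of these data showed them apart in M176 Tregs. Their counts there are therefore no independent support. Whether any of these genes passed the filter through the M176 Treg arrays alone was not examined. The mean over all genes tested stayed between 8.32 and 8.55. The proliferation genes (13 of 20 listed were in the table) had a mean of 8.61 and 9.01 in WT, 9.09 and 9.47 in M354 and 7.74 and 7.72 in M176 Tregs. In M176 against WT Tregs 7 of the 13 fell, Mki67, Ccna2, Ccnb2, Bub1, Kif11, Plk1 and Rrm2, and 0 rose; Pcna measured 2760 and 2866 in WT and 3305 and 3101 in M176. In transduced cells the mean was 9.78 to 10.40. The part of these shifts and of the lower Foxp3 signal in the rise of the subunits was not tested. Nor was that of the B cell markers of WT Treg array 2, apart from the fit without that array.

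**Figure D5:**
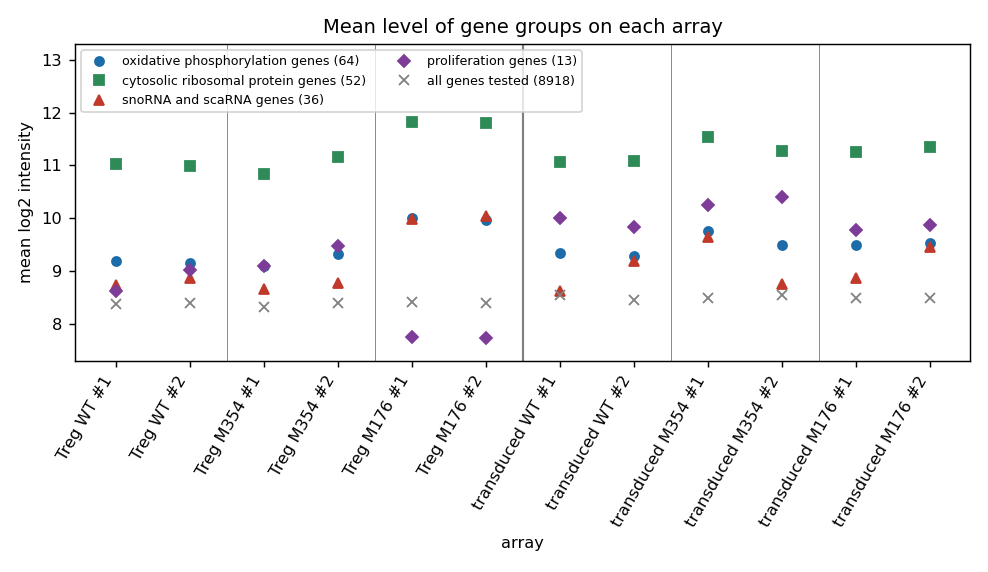
Mean log2 intensity of 5 gene groups on each of the 12 arrays, 1 point per group and array, with the number of genes in brackets. The oxidative phosphorylation, ribosomal protein and small nucleolar RNA genes are highest on the M176 Treg arrays (10.01 and 9.96 for the first), where the proliferation genes are lowest (7.74 and 7.72).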

How the data were processed

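RNA of 12 samples, 2 in each of 6 groups taken from the sample titles, was measured on 1-colour arrays. The deposited values are linear intensities for each probe set and array, which the authors obtained by RMA in Affymetrix Power Tools, per the submitters' processing notes. The array design's genome build is not given in the sources used here. Replicates of a group correlated at 0.9842 to 0.9918 over genes tested. An array has no depth, and 2 arrays a group limit the precision.

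The table held 20716 probe sets, 17703 with 1 gene symbol, 1246 with several and 1767 with none. The brightest singly named probe set of each gene, by mean of 12 arrays, was used. Genes above their array's median (percentile 50) on at least 2 arrays were tested, 8918 in all. The fit used log2 intensity and limma 3.58.1 (R 4.3.3), with 6 group means, all 12 arrays and no block, leaving 6 residual degrees of freedom and a prior of 10.9. Calls were made in each of 9 comparisons at an adjusted p (Benjamini-Hochberg) under 0.05; errors are limma's standard errors (SE) and intervals are at 95%. The steps were tested on simulated data.

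The subunit genes and the other lists were chosen with earlier results of these data known. Values per array are given for up to 5 called genes with the greatest rise and fall per comparison, the gene with the smallest p in each complex, and fixed names; those of the other lists are the 3 greatest called changes. Atp5o, Cox6a1, Ndufs8, Uqcrh, Ndufv2 and Nrf1 were named after their values were seen, as were the counts by symbol letter and by brightness. Alternatives were quantile and cyclic loess normalization, no filter, a filter at percentile 75, the mean of a gene's probe sets, the replicate number as a block and each array left out in turn. Same-numbered arrays did not deviate together: the correlations of replicate differences between groups ran from -0.551 to 0.25, and 3 of 15 pairs were over 0.1. A comparison of change with protein length was planned and not run, since protein sequences are not used here.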

Additional observations from a re-analysis of the deposited data

Results flagged for a closer look

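In 11 genes named above, the difference between M176 and WT Foxp3 was greater in Tregs than in transduced cells by limma's interaction test, out of the 23 subunit genes that passed it. The difference of log2 differences was 1.69 for Atp5mpl, 1.44 for Ndufa1, 1.4 for Ndufb9, 1.25 for Atp5l, 1.24 for Ndufs5 and 1.19 for Uqcrb. It was 1.18 for Ndufb5, 1.15 for Cox4i1, 1.11 for Cox7a2, 1.08 for Ndufa4 and 1.02 for Ndufv3. Their limma adjusted p ran from 0.0015 for Ndufb9 to 0.0473 for Ndufa4. Atp5mpl, Ndufa1, Ndufb9, Atp5l and Cox4i1 passed with any 1 array left out. Of the 8 arrays of the 4 groups compared, Ndufa4 lost the call without any 1 of 7 and Cox7a2 without any 1 of the 8 (limma adjusted p up to 0.149 and 0.198, without M176 Treg array 1), Ndufa4 also without either M354-transduced array (0.0506 and 0.0503). Ndufv3 lost it without 5 of the arrays, with a limma adjusted p up to 0.157 without M176-transduced array 1. Under other settings Ndufv3 lost the call with quantile (0.0672) and cyclic loess normalization (0.0513), Cox7a2 with both (0.0764 and 0.0585), without the filter (0.053) and with the replicate block (0.0587), and Ndufa4 with quantile normalization (0.0854), without the filter (0.0568) and with the block (0.0619). Ndufs5 lost it without WT Treg array 1 (0.0678), M176 Treg array 1 (0.111) or M176-transduced array 2 (0.0581), Uqcrb without M176-transduced array 1 (0.0517) and Ndufb5 without M176 Treg array 1 (0.0501).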

How the results depend on the processing

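The rise in M176 against WT Tregs kept its direction and size: 44 to 50 genes were called under the other scalings, filters, probe set rule and block, and 39 to 52 with an array left out (median log2 0.687 to 0.881). Both other scalings added Sdha as 1 gene that fell (46 higher and 1 lower with quantile, 49 and 1 with cyclic loess). The count of 23 in the M176 interaction was 15 (14 greater, and Atp5g2 smaller at log2 -0.702) with quantile normalization and 9 to 24 with an array left out; the cause of the former was not tested. Leaving out an array moved the count for M354 against WT in transduced cells between 0 and 2, the M354 interaction between 0 and 1 with its median from -0.444 to -0.144, and WT Tregs against WT-transduced cells between 10 and 21. Each such fit has fewer samples. With the replicate block, which the check above does not back as a pairing, 49 genes were called for M176 against WT Tregs, 49 for M354 against M176 Tregs, 18 in the M176 interaction and 18 for the WT groups. Of 61 called results of named genes, 39 were called under every alternative, and 0 reversed. No alternative called a gene in M354 against WT Tregs.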
